A study of Mus musculus with 6 samples.

Results

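The genes described here carry the MHC class I antigen presentation pathway and the proteasome core that feeds it. They were chosen by name, as 31 mouse gene symbols matched to the Entrez identifiers of the files, and all 31 were among the 14574 genes listed in any library. A set of 17 inducible genes, which interferons are known to raise, was set against 14 genes of the standard proteasome core. RNA sequencing measured macrophages grown from bone marrow, in 3 libraries of Cd28 KO mice and 3 of C57BL/6J wild-type mice (WT), aged 6 to 10 weeks. Femoral marrow of both genotypes was grown for 7 days in DMEM with 10% fetal calf serum, 2-ME and human M-CSF at 25 ng/ml, renewed every 2 days, with no further treatment. The labels number the libraries of each genotype from 1 to 3 without naming the animals behind them, and p-values therefore cover only library-to-library spread, part of which may be technical. The sources used here do not give the background strain of the Cd28 KO mice, the targeted part of the gene or the sex of the mice.

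MHC class I molecules show peptides from inside the cell to CD8 T cells. The peptides are cut in the proteasome, a barrel of alpha-subunit outer rings and beta-subunit inner rings in which the beta subunits Psmb5, Psmb6 and Psmb7 hold the catalytic sites. Interferon gamma brings in Psmb8, Psmb9 and Psmb10, which take the places of Psmb5, Psmb6 and Psmb7 in newly built particles and form the immunoproteasome, together with the activator PA28 made from Psme1 and Psme2. The transporter Tap1-Tap2 carries the peptides into the endoplasmic reticulum, Erap1 trims them, tapasin (Tapbp) helps to load them, and a loaded heavy chain with beta-2 microglobulin (B2m) travels to the surface. Nlrc5 is the transcriptional coactivator of class I genes. Macrophages present antigen by this route and are known to carry inducible subunits without added interferon.

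Levels are in FPKM, which counts fragments for each kilobase of a transcript relative to all mapped fragments, and can be compared between genes per length. The sources used here do not give the depth behind them. Cd28 itself was listed at 25.7, 24.2 and 26.9 FPKM in the Cd28 KO libraries and at 38.2, 30.1 and 51.1 in WT, so its transcript was lower but not at 0 (exact two-sided permutation p = 0.1, the smallest that 3 against 3 allows). On principal component 1, which held 73.8% of the variance, replicate 3 of each genotype lay far from the other libraries, and these 2 libraries were the only libraries that listed the 4 Y-linked genes examined, at 1.97 to 39.1 FPKM. Replicate 3 of both genotypes thus held RNA of male cells, which cannot be told apart from other differences of replicate 3. Macrophage markers were listed in every library (8 of 8), with sums of 14779 to 16869 FPKM over the Cd28 KO libraries and 14104 to 14783 over WT. Of the T cell markers, 6 of 7 stayed below 1 FPKM in every library, with Cd3d never listed, Cd3e and Cd3g at 0 in all libraries but 1, and Cd4 the exception at 2.95 to 6.42. Summed FPKM ran, for Cd28 KO and then WT, from 4.66 to 6.98 and 5.24 to 7.20 for T cell markers, 1.93 to 2.72 and 2.48 to 3.84 for B cell markers, 0.25 to 0.74 and 0.42 to 0.90 for NK cell markers, 3.89 to 9.10 and 2.54 to 7.19 for neutrophil markers, 3.87 to 6.03 and 2.82 to 5.98 for dendritic cell markers, and 0.17 to 0.40 and 0.12 to 0.25 for fibroblast markers. In such bulk samples, fewer cells of a type and less RNA per cell cannot be told apart.

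All 31 genes passed the filter of a mean of at least 1 FPKM and entered a limma fit over 10172 genes on log2(FPKM + 1), without a block for the replicate number. At a threshold of 0.05 on the Benjamini-Hochberg adjusted p, limma called 0 members in either direction, where 0.0197% of all tested genes were called higher and 0.0% lower. Each member had a limma adjusted p of 0.9995. Without adjustment, the p of 2 of the 17 inducible genes and 0 of the 14 standard genes was below 0.05 with a positive difference, against 1.74% of all tested genes, and that of 0 members with a negative one, against 0.747%. When the replicate number was added as a block, limma again called 0 members, against 0.138% higher and 0.0393% lower over all genes. The unadjusted limma p was then below 0.05 for 3 inducible genes (H2-Q7, Psmb8 and Psmb9) and 1 standard gene (Psma7) with a positive difference, against 5.08%. It was below 0.05 for 0 members with a negative one, against 2.81%. With array weights, which down-weight libraries that vary more, limma called 3 inducible genes (Psmb8, Psmb9 and Psme1) and 3 standard genes (Psma3, Psma5 and Psma7) higher and 0 members lower, against 5.94% and 3.19% of all genes. The lowest limma adjusted p with the block was 0.47 among the inducible and 0.55 among the standard genes. On simulated data for this comparison, limma without a block recovered 0% of genes at the smallest fold simulated, which was close to that of Psmb9. It recovered 4% of genes changed 1.5-fold, 40% at 2-fold and 82% at 4-fold. The changed genes were drawn at random from all 10172 tested genes. These shares therefore do not give the recovery for genes with the levels and spread of the members. The largest ratio of group means among the members was 1.27, for Psmb9.

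**Figure D1:**
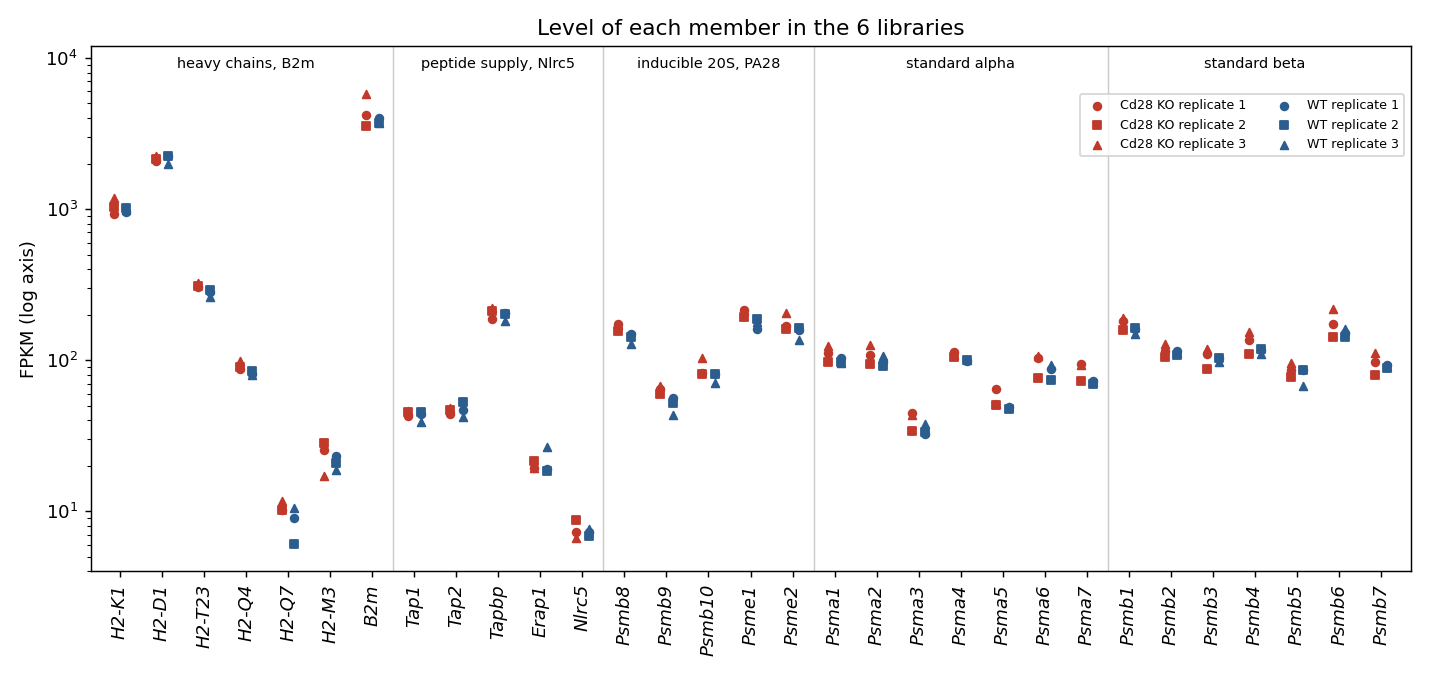
FPKM of each of the 31 genes (log axis) in the 3 Cd28 KO libraries (red) and the 3 WT libraries (blue), with the shape giving the replicate number. The inducible genes span means from 7.42 FPKM for Nlrc5 to 4152 for B2m, while the standard core genes stay between 37.6 FPKM for Psma3 and 167 for Psmb1, and red and blue points lie close together for each gene.

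Differences were small and mostly positive in both sets. Of the 17 inducible genes, 14 had a positive difference (Cd28 KO minus WT), with a median log2 of 0.17, and all 14 standard genes were positive, with a median of 0.16. Over all 10172 tested genes 49.1% were positive, with a median of -0.00. The medians were 0.11 and 0.10 on the TPM scale (each library rescaled to the same sum), where 13 of 17 and 12 of 14 were positive against 34.8% of all genes, whose median was -0.06 there. With quantile normalization they were 0.13 and 0.11. Leaving out Cd28 KO replicate 3 gave medians of 0.11 for the inducible and 0.07 for the standard genes. The standard median was 0.25 when Cd28 KO replicate 2 was left out. Every Cd28 KO library lay above every WT library for 5 of the 17 inducible genes (H2-T23, H2-Q4, Psmb8, Psmb9 and Psme1) and for 2 of the 14 standard genes (Psma4 and Psma5), against 3.84% of all genes. The opposite order occurred for 0 members, against 2.87% of all genes. On the TPM scale the groups of H2-Q4, Psma4 and Psma5 overlapped, while those of Psmb1 did not. The share of all genes with the strict order was not computed on that scale. In replicates 1 and 2 alone the same strict order held for 9 of 17 and 3 of 14, where 25.8% of all genes showed it, and 12 of 17 and 10 of 14 differences were positive there, against 57.1%. The strict order in replicates 1 and 2 was thus near the background for the standard genes.

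**Figure D2:**
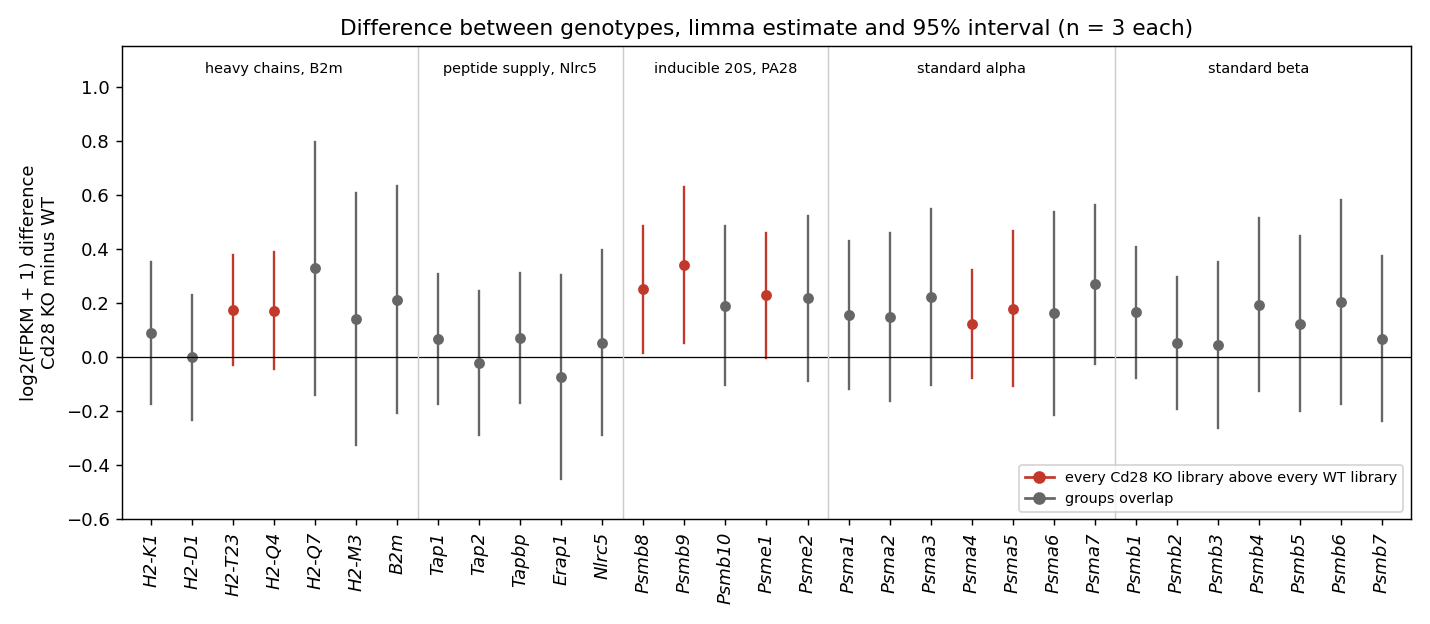
Difference in log2(FPKM + 1), Cd28 KO minus WT, for each gene (points) with the 95% interval of the limma fit without a block (lines), n = 3 libraries each. Red marks the 7 genes whose groups do not overlap, and only the intervals of Psmb8 and Psmb9 lie wholly above 0. With the replicate number as a block (not drawn), those of H2-Q7 (0.02 to 0.63) and Psma7 (0.04 to 0.49) did as well.

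Among the class I molecules, B2m and the classical heavy chains H2-D1 and H2-K1 were the most abundant, and their groups overlapped. B2m, the shared light chain, stood at 4218, 3542 and 5733 FPKM in Cd28 KO and at 3982, 3702 and 3732 in WT. Its high Cd28 KO mean rested on replicate 3, and the groups overlapped. The log2 difference of B2m was 0.21 ± 0.18 (SE; 95% interval -0.21 to 0.63), and 0.02 without Cd28 KO replicate 3. H2-D1, a classical heavy chain, stood at 2076, 2157 and 2235 FPKM against 2241, 2254 and 1987, a log2 difference of -0.00 ± 0.10 (interval -0.23 to 0.23). H2-K1, the other classical heavy chain, stood at 925, 1035 and 1180 against 949, 1010 and 979, a log2 difference of 0.09 ± 0.11, and -0.00 without Cd28 KO replicate 3. The classical chains thus overlapped between genotypes, and H2-K1 was 0.446 to 0.528 of H2-D1 in Cd28 KO and 0.423 to 0.493 in WT. Values of similar heavy chain genes are uncertain, since the estimation shares fragments between near-identical sequences. The sum over the 6 heavy chains, which is less exposed to such sharing, had a mean of 3641 ± 219 FPKM for Cd28 KO against 3528 ± 171 for WT (SD, n = 3 each), with overlap.

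The nonclassical heavy chains were less abundant. H2-T23, which encodes Qa-1 and presents class I leader peptides to NK cell receptors, stood at 303, 310 and 323 FPKM in Cd28 KO and at 281, 289 and 261 in WT. H2-Q4 stood at 87.8, 90.3 and 98.9 FPKM against 81.4, 84.3 and 79.8. For both genes each Cd28 KO library was above each WT library in FPKM, although H2-Q4 overlapped on the TPM scale. The log2 differences were only 0.17 ± 0.09 for H2-T23 (interval -0.03 to 0.38) and 0.17 ± 0.09 for H2-Q4 (interval -0.05 to 0.39). H2-Q7, a Qa-2 gene, stood at 10.3, 10.3 and 11.7 FPKM against 9.05, 6.06 and 10.5, with 1 low WT library. The log2 difference of H2-Q7 was 0.33 ± 0.20, and 0.13 without WT replicate 2. H2-M3, which presents formylated bacterial peptides, stood at 25.5, 28.5 and 17.1 FPKM against 23.2, 20.9 and 18.8, lower in replicate 3 of both genotypes.

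Class I genes are known for a shared promoter module whose X2 and Y boxes bind the complex that Nlrc5 joins. RefSeq promoter windows (GRCm38.p6, 250 bases before to 50 after a start) were at hand for 26 of the 31 genes. Stretches of some are shown because class I genes are known to share this element while their levels and differences vary. The letters TGACG followed by ATTGG with 19 or 20 bases between, searched on both strands, occurred in 5 of the 15 inducible genes with a window and in 0 of 11 standard genes, against 0.131% of all 32851 windows. Here and below, a gene was counted if any of its windows matched, whereas the background is a share of single windows. The 5 were B2m, H2-D1, H2-K1, H2-M3 and H2-Q7. Stretches are printed 5′ to 3′ on the gene's strand, with both boxes in capitals and, for B2m, also the interferon-stimulated response core, GAAA and GAAA with 2 bases between. They lie at chr17:34000347-34000400 (minus strand) for H2-K1, chr17:35262981-35263034 (plus) for H2-D1, chr17:35439079-35439131 (plus) for H2-Q7, chr17:37270176-37270229 (plus) for H2-M3 and chr2:122147540-122147650 (plus) for B2m.
H2-K1: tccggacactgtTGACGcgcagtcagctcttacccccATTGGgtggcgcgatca
H2-D1: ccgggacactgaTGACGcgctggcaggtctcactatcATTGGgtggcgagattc
H2-Q7: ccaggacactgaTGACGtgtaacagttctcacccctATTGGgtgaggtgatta
H2-M3: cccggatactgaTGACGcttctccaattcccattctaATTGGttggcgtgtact
B2m: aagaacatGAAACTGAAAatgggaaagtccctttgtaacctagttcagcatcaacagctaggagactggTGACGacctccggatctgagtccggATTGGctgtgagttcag

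These 5 genes had log2 differences between -0.00 for H2-D1 and 0.33 for H2-Q7, and none was called by limma. H2-T23 and H2-Q4 did not hold these exact letters in their windows, and variants of the boxes were not searched. The interferon-stimulated response core (both strands) was found for B2m, Erap1, H2-T23 and Psme1 among the inducible genes and for Psmb3 among the standard genes, against 3.44% of all windows. The gamma-activated core TTCNNNGAA (both strands) was found for H2-M3 and Psmb8, against 8.30% of windows. The antioxidant response core TGACNNNGC, which can overlap the X2 letters, was found for Psmb5, Psmb6 and H2-K1, against 12.4%. A match is a description of letters in a window and not of binding.

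The genes of peptide transport, trimming and loading had differences near 0, with a median log2 of 0.05 over 5 genes. Tap1 stood at 42.9, 45.4 and 45.9 FPKM in Cd28 KO and 43.8, 45.2 and 39.2 in WT. Tap2 stood at 44.3, 46.5 and 47.9 FPKM against 46.5, 52.5 and 42.2. Each gene of the transporter overlapped between genotypes, with log2 differences of 0.07 ± 0.10 for Tap1 and -0.02 ± 0.11 for Tap2 (intervals -0.17 to 0.31 and -0.29 to 0.24). The Tap1 to Tap2 ratio did not overlap, at 0.970, 0.976 and 0.959 in Cd28 KO and 0.940, 0.860 and 0.931 in WT, and was not tested. Of several ratios and sums computed per library, it was the only one without overlap. Tapbp stood at 206 ± 17.3 FPKM against 196 ± 12.4 (SD, n = 3 each). Erap1 stood at 19.5, 21.4 and 19.3 FPKM in Cd28 KO and at 19.1, 18.5 and 26.7 in WT, where replicate 3 was the high one. Without WT replicate 3 the log2 difference of Erap1 turned from -0.07 to 0.09. Nlrc5 was the lowest member, at 7.33, 8.79 and 6.66 FPKM against 7.24, 6.88 and 7.61. Its log2 difference was 0.05 ± 0.15 (interval -0.29 to 0.40), and -0.04 without Cd28 KO replicate 2.

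The 5 subunits of the immunoproteasome and PA28 all had positive differences, against 49.1% of all tested genes. Their median log2 was 0.23, or 0.17 on the TPM scale. For 3 of them every Cd28 KO library lay above every WT library, against 3.84% of all genes. Psmb9 stood at 64.7, 59.7 and 67.1 FPKM in Cd28 KO and at 55.8, 52.1 and 43.4 in WT, every Cd28 KO library being above every WT library. Its log2 difference was 0.34 ± 0.12 (interval 0.05 to 0.63), and limma gave an adjusted p of 0.9995, or 0.47 once the replicate number was a block. Psmb8 stood at 172, 157 and 170 FPKM against 149, 143 and 127, again without overlap. Its log2 difference was 0.25 ± 0.10 (interval 0.02 to 0.48), and its limma adjusted p under the block was 0.57.

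The third inducible catalytic subunit overlapped between genotypes. Psmb10 stood at 82.8, 81.0 and 102.9 FPKM in Cd28 KO and at 81.2, 80.5 and 70.7 in WT. Replicates 1 and 2 were nearly equal, and its log2 difference was 0.19 ± 0.12 overall and 0.53 in replicate 3. Psme1 stood at 215, 192 and 212 FPKM against 162, 187 and 179, without overlap, a log2 difference of 0.23 ± 0.10 (interval -0.00 to 0.46). Its partner Psme2 stood at 167, 161 and 207 FPKM against 159, 163 and 136, with overlap, a log2 difference of 0.22 ± 0.13. The same-numbered libraries differed in how much: the median log2 over these 5 genes was 0.20 in replicate 1, 0.03 in replicate 2 and 0.53 in replicate 3.

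Psmb9 and Tap1 are transcribed away from each other from a common stretch on chromosome 17, with 225 bases between their starts, and this stretch is shown because the genes on either side of it had different values. The stretch chr17:34187331-34187555 is printed on the strand of Tap1, with the letters TGACG in capitals. No ATTGG follows them with 19 or 20 bases between, and the pair of boxes was not found for Psmb9 or Tap1.
Psmb9-Tap1: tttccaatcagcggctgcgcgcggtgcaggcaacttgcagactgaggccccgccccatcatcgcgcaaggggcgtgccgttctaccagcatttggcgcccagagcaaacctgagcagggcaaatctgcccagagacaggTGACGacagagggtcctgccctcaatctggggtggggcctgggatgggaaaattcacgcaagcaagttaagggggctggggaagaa
Across this stretch, the log2 difference was 0.34 for Psmb9 and 0.07 for Tap1, and the difference between these 2 values was not tested. In the same-numbered libraries it was 0.21, 0.19 and 0.62 for Psmb9, and -0.03, 0.01 and 0.22 for Tap1, so that replicate 3 was the highest for both genes.

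The standard core genes had similar levels. Their means over the 6 libraries ran from 37.6 FPKM for Psma3 to 167 for Psmb1, a range of 4.45-fold, where the inducible genes spanned 560-fold. Among the alpha subunits, which form the outer rings, Psma7 had the largest difference, at 94.1, 72.3 and 93.2 FPKM in Cd28 KO and 72.5, 69.3 and 71.7 in WT. Its Cd28 KO replicate 2 lay within the WT range, and its log2 difference was 0.27 ± 0.12 (interval -0.02 to 0.56). Psma4 stood at 113, 104 and 108 FPKM against 98.3, 100.6 and 99.6, and Psma5 at 64.3, 50.2 and 51.0 against 48.9, 47.4 and 48.7. These 2 alpha genes did not overlap in FPKM but did on the TPM scale, with log2 differences of 0.12 ± 0.08 and 0.18 ± 0.12 in FPKM. Cd28 KO replicate 1 was the high library of Psma5, whose difference was 0.07 without it. Psma3 stood at 45.0, 33.8 and 43.1 FPKM against 32.6, 33.4 and 37.7. Psma1, Psma2 and Psma6 had log2 differences of 0.16, 0.15 and 0.16, and their groups overlapped.

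The beta subunits, which form the inner rings, overlapped in FPKM in all 7 cases. Over all tested genes only 3.84% lay wholly above and 2.87% wholly below WT, so overlap was the usual outcome. Psmb6, the standard site that Psmb9 replaces, stood at 172, 141 and 218 FPKM in Cd28 KO and 152, 142 and 161 in WT. Psmb5, the site that Psmb8 replaces, stood at 86.6, 77.1 and 95.7 FPKM against 86.0, 85.5 and 67.1. Psmb7, the site that Psmb10 replaces, stood at 96.8, 80.3 and 110.7 FPKM against 92.7, 88.9 and 90.5. In each of these catalytic genes Cd28 KO replicate 3 was the highest library and Cd28 KO replicate 2 the lowest of its genotype. Their log2 differences were 0.20 ± 0.16, 0.12 ± 0.14 and 0.07 ± 0.13. Without Cd28 KO replicate 3 these were 0.04, 0.05 and -0.04, and that of Psmb5 was 0.01 without WT replicate 3. The noncatalytic beta genes ranged from 0.04 for Psmb3 over 0.05 for Psmb2 and 0.17 for Psmb1 to 0.19 for Psmb4.

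The standard core genes varied together among the Cd28 KO libraries. Cd28 KO replicate 2 was the lowest Cd28 KO library for 14 of 14 standard genes, where this held for 24.1% of all tested genes, and for 6 of 17 inducible genes. These 6 were B2m, Psmb8, Psmb9, Psmb10, Psme1 and Psme2, so in FPKM every inducible proteasome and PA28 gene shared this order with the standard core. The order depended on the scaling, as Cd28 KO replicate 2 had the lowest FPKM sum of its genotype (519093, against 557738 and 576313). On the TPM scale it was not the lowest for Psma4, Psma5, Psmb8, Psmb10, Psme1 and Psme2. Cd28 KO replicate 3 was the highest of the 6 libraries for 10 of 14 standard and 10 of 17 inducible genes, where this held for 13.8% of all tested genes. The median SD of log2 values among the 3 Cd28 KO libraries was 0.21 for the standard genes and 0.06 among the WT libraries, against 0.19 and 0.18 over all genes. For the inducible genes these SDs were 0.09 and 0.11. The same-numbered libraries can be set against each other as pairs, although for replicates 1 and 2 the data do not show which libraries belong together. On that basis the standard genes had medians of 0.18, -0.01 and 0.29, and the inducible genes 0.07, 0.07 and 0.27. In the pair of replicate 2, a single library of each genotype, 6 of 7 alpha genes and 0 of 7 beta genes were positive, against 5861 of 10172 tested genes. This contrast of the rings depended on the scaling and on the pairing. On the TPM scale Psma1, Psmb1 and Psmb6 were also positive in the pair of replicate 2. Against WT replicate 1, Cd28 KO replicate 2 was also lower in FPKM for the alpha genes Psma1, Psma2, Psma6 and Psma7. In the pairs of replicates 1 and 3 all 7 of each ring were positive, against 5241 and 4387 of all tested genes. Psma2, Psma3, Psma4, Psma5, Psma6 and Psma7 were higher in Cd28 KO in all 3 pairs, as were H2-T23, H2-Q4, H2-Q7, Psmb8, Psmb9, Psmb10 and Psme1, which makes 6 of 14 and 7 of 17, against 15.0% of all genes.

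**Figure D3:**
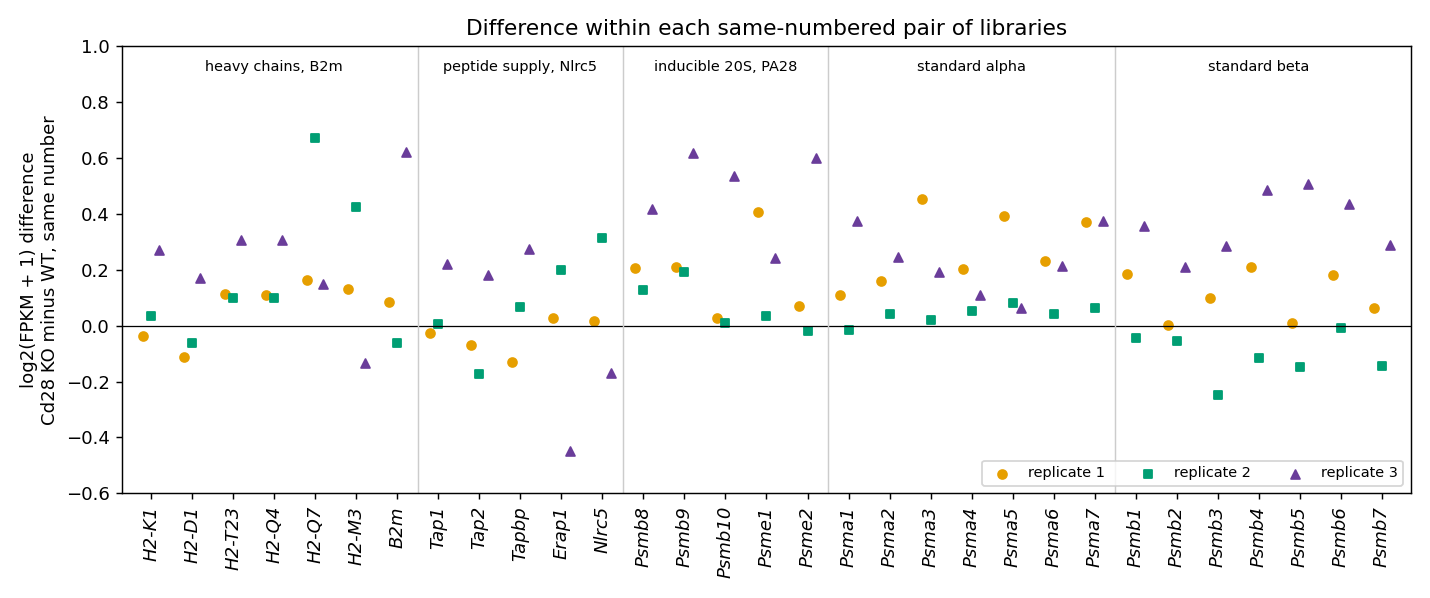
Difference in log2(FPKM + 1) between the Cd28 KO and the WT library of the same replicate number, for each gene. The 7 standard beta genes lie below 0 in replicate 2 (green squares) and above 0 in replicates 1 and 3, whereas Psmb8 and Psmb9 lie above 0 in all 3.

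Whether the inducible subunits were higher relative to the standard ones they replace was asked with 3 ratios per library. Psmb8 was 1.99, 2.03 and 1.78 times Psmb5 in Cd28 KO and 1.74, 1.67 and 1.90 times in WT. The means were 1.93 ± 0.135 and 1.77 ± 0.116 (SD, n = 3 each), with an exact two-sided permutation p of 0.2, adjusted to 0.45 over the 3 ratios. Replicate 3 went against replicates 1 and 2, and without both replicate 3 libraries the difference of this ratio moved from 0.16 to 0.31. Psmb9 was 0.376, 0.422 and 0.308 times Psmb6 in Cd28 KO and 0.367, 0.367 and 0.269 times in WT, with an exact permutation p of 0.5. In each same-numbered pair the ratio was higher in Cd28 KO, and an exact sign-flip permutation over the 3 pairs gave p = 0.25, the smallest it can give. Psmb10 was 0.856, 1.01 and 0.930 times Psmb7 against 0.877, 0.906 and 0.781 times, with an exact permutation p of 0.3. Over pairs, the exact sign-flip permutation p was 0.5 for both Psmb8 to Psmb5 and Psmb10 to Psmb7. All 3 ratios overlapped between genotypes, at adjusted permutation p values of 0.45 to 0.5, with 0.1 being the smallest unadjusted value possible. Psmb8 was thus above its standard counterpart in all 6 libraries and Psmb9 below its own.

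**Figure D4:**
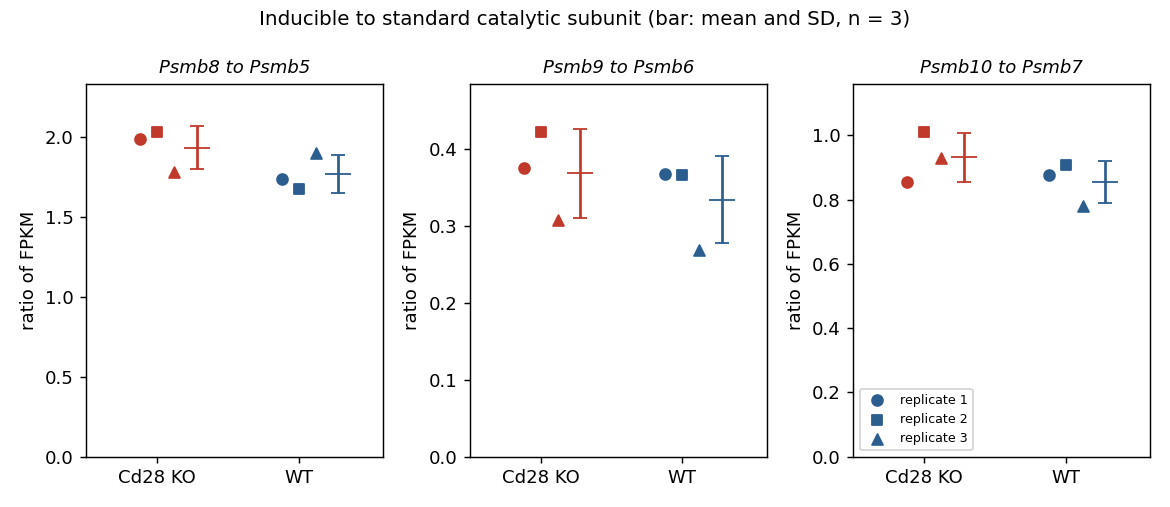
Ratio of FPKM of each inducible catalytic subunit to the standard subunit it replaces, per library (shape gives the replicate number), with mean and SD (n = 3). The groups overlap in all panels, Psmb8 standing at 1.67 to 2.03 times Psmb5 and Psmb9 at 0.269 to 0.422 times Psmb6.

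The proteasome's other parts were examined through further gene lists. Of 19 genes of the 19S regulatory particle, the cap that unfolds ubiquitin-tagged proteins, 15 were positive, with a median log2 of 0.07, and limma called 0. Psmd14, the deubiquitinase of the cap, stood at 45.8, 41.6 and 43.3 FPKM in Cd28 KO and 34.8, 32.0 and 37.4 in WT, without overlap. Its log2 difference was 0.32 ± 0.11, and limma gave an adjusted p of 0.9995, or 0.39 under the block. Sem1, a small cap subunit, stood at 335, 288 and 315 FPKM against 275, 260 and 248, also without overlap. Psmc2, an ATPase of the cap, stood at 58.9 ± 4.50 against 51.9 ± 3.99 FPKM. Of 13 tested genes for assembly, other activators and control, 8 were positive, with a median of 0.08 and 0 called. Psmd10, an assembly chaperone, stood at 19.1 ± 1.59 FPKM against 16.4 ± 0.503 (SD, n = 3 each), without overlap, Psmg4 at 25.5 ± 2.68 against 21.3 ± 3.53 and Psmg2 at 11.7 ± 1.65 against 9.76 ± 1.66. On the TPM scale 10 of the 19 cap genes and 7 of these 13 were positive, against 34.8% of all tested genes. In FPKM 49.1% of all tested genes were positive, and limma called 0.0197% higher and 0.0% lower.

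Of 9 other genes of peptide loading and trimming 5 were positive (3 on the TPM scale), against 49.1% (34.8%) of all tested genes. Their median log2 was 0.04, and limma called 0, against 0.0197% higher and 0.0% lower over all genes. The chaperone Hspa5 stood at 365 ± 5.27 against 340 ± 17.9 FPKM, Pdia3, of the loading complex, at 292 ± 13.1 against 274 ± 9.06, and calnexin (Canx) at 113 ± 8.38 against 120 ± 5.57. Of 15 other class I and class I-like genes 8 passed the filter, 7 of these were positive, with a median log2 of 0.20, and limma called 0. Hfe, a class I-like regulator of iron uptake, stood at 24.2, 21.9 and 20.3 FPKM in Cd28 KO and 18.9, 17.2 and 17.7 in WT, without overlap, at a log2 difference of 0.28 ± 0.12. Mr1, which presents vitamin metabolites, stood at 4.57 ± 0.219 against 3.65 ± 1.19 FPKM, and H2-T22 at 79.0 ± 3.37 against 73.1 ± 5.74. H2-Bl, chosen after its values were seen, was listed at 0.14, 0.20 and 0.16 FPKM in Cd28 KO and at 0 in all WT libraries, levels under the filter.

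Regulators of class I transcription and the interferon receptors had medians near 0. Of 12 regulators 7 were positive (5 on the TPM scale), against 49.1% (34.8%) of all tested genes. Their median log2 was 0.02, and limma called 0, against 0.0197% higher and 0.0% lower over all genes. Irf9, the DNA-binding part of the complex that type I interferon activates, stood at 48.2, 51.5 and 50.5 FPKM in Cd28 KO and 41.8, 45.2 and 47.5 in WT, without overlap, at a log2 difference of 0.16 ± 0.10. Rfxap, a part of the complex on the X box, stood at 10.1 ± 1.65 against 8.82 ± 1.54 FPKM, and the NF-kB subunit Rela at 53.3 ± 4.67 against 57.2 ± 4.29. Of 9 receptor, kinase and ligand genes 7 were tested, of which 3 were positive (1 on the TPM scale), against the same shares of all genes. The median log2 was -0.03 and limma called 0, while the ligands Ifnb1 and Ifng were listed in no library. Ifnar1, a chain of the type I interferon receptor, stood at 18.4, 18.2 and 17.7 FPKM in Cd28 KO and 20.4, 20.4 and 23.2 in WT, below WT without overlap, at a log2 difference of -0.22 ± 0.11. Jak2 stood at 7.21 ± 0.571 against 8.23 ± 2.67 FPKM and Ifngr2 at 109 ± 5.69 against 114 ± 5.10, both with overlap.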

How the data were processed

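The tools Bowtie and RSEM and the build GRCm38 are named, per the submitters' processing notes, and the sources used here give no versions. The authors deposited FPKM values per Entrez gene for each library, listing only genes above 0, so a missing gene was counted as 0. RSEM shares fragments between similar genes. Libraries listed 12768 to 13327 genes and FPKM summed to 510937 to 576313. Of 14574 identifiers 14551 matched RefSeq, the source of symbols and sequences, and 23 did not. No pair of libraries shared more than 0.46% of values of at least 1 FPKM.

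limma 3.58.1 (R 4.3.3, trended empirical Bayes) was fitted to log2(FPKM + 1) of 10172 genes whose mean over the libraries reached 1 FPKM, and p-values were adjusted over all of them (threshold 0.05, two-sided). The log scale understates changes of low genes. Ratios and Cd28 were tested by exact permutation. Tables and figures used SciPy 1.17.1, NumPy 2.4.6, pandas 2.3.3 and Matplotlib 3.10.9 in Python 3.11.15. The fit was tested on simulated data, with 0 unchanged genes called without a block and 2 with it.

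Deviations from the group means correlated at 0.75, 0.51 and 0.78 between libraries numbered 1, 2 and 3. All exceeded 0.1, the level set for taking numbers as pairs. Libraries numbered 1 and 2 also correlated across numbers (0.66 for Cd28 KO replicate 1 with WT replicate 2, 0.53 for Cd28 KO replicate 2 with WT replicate 1), so only replicate 3 was set apart by its number. The members and lists were chosen with earlier results of these data known. Named were Cd28, the members and, of each further list, the called genes or otherwise up to 3 of smallest p.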

Additional observations from a re-analysis of the deposited data

How the results depend on the processing

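Alternatives changed the replicate term, pseudocount (0.1), filter, scaling, weights and libraries. limma called 2 genes over all tested genes, 18 with the replicate block, 28 with replicate 3 as a batch (an alternative chosen after seeing the data), 5 without a filter, 71 in replicates 1 and 2 only and 928 with array weights. The inducible and the standard genes called were 0 and 0 in every setting but array weights, where they were 3 (Psmb8, Psmb9, Psme1) and 3 (Psma3, Psma5, Psma7), against 5.94% of all genes called higher and 3.19% lower. Those weights rest mostly on replicate 1 (5.97 and 4.81, against 0.18 for each replicate 3). The replicate block changed no member's call. The inducible median of 0.17 was 0.0713 with array weights and 0.10 in replicates 1 and 2 only, and ran from 0.11 to 0.19 with 1 library left out. The standard median of 0.16 ran from 0.069 without Cd28 KO replicate 3 to 0.25 without Cd28 KO replicate 2.

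In the replicate block as pairs, the mean ratio differences are by construction those of the unpaired comparison, 0.16, 0.034 and 0.077 for Psmb8, Psmb9 and Psmb10. With 1 library left out they ran from 0.11 to 0.24, 0.0015 to 0.064 and 0.038 to 0.11, and in replicates 1 and 2 only that of Psmb8 to Psmb5 was 0.31. The Cd28 difference was -14.2 FPKM, -29.3 TPM on that scale, and -19.1 to -8.56 FPKM with 1 library left out.

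Leaving out 1 library moved the log2 difference by over 1.5 times for 23 of the 31 members, and not for the other 8, H2-T23, H2-Q4, Psmb1, Psmb8, Psmb9, Psme1, Psma4 and Psma7. Of 496 values of single members under 16 alternatives, 30 in 12 members had the opposite sign. The cause was not tested. As log2 differences, these were H2-K1 (-0.0345), Tap1 (-0.0238), Tapbp (-0.0981) and Erap1 (0.0366) with array weights. In replicates 1 and 2 only they were H2-K1 (-0.000616), Tap1 (-0.0107), Tapbp (-0.0322), Erap1 (0.113), Psmb2 (-0.0255), Psmb3 (-0.0755), Psmb5 (-0.0690) and Psmb7 (-0.0419). With quantile normalization they were H2-K1 (-0.0239) and H2-D1 (0.00212), with median centring H2-D1 (0.00531), and on the TPM scale Nlrc5 (-7.56e-05), Psmb2 (-0.00714) and Psmb3 (-0.0157). With 1 library left out, the sign turned without Cd28 KO replicate 3 for H2-K1 (range -0.000693 to 0.174), Psmb2 (-0.0203 to 0.126), Psmb3 (-0.0486 to 0.173) and Psmb7 (-0.0407 to 0.189), and without Cd28 KO replicate 2 for H2-M3 (-0.00223 to 0.351) and Nlrc5 (-0.0445 to 0.133). It turned without WT replicate 3 for Erap1 (-0.166 to 0.0877), without Cd28 KO replicate 1 or WT replicate 2 for Tap2 (-0.0963 to 0.0590), and without any of Cd28 KO replicate 1, WT replicate 1 or WT replicate 2 for H2-D1 (-0.0606 to 0.0301).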
